A study of Rattus norvegicus with 16 samples.

Results

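The genes described here encode subunits of voltage-gated calcium channels, the pores through which depolarization lets calcium into a neuron. They are 10 genes, chosen by symbol: the pore genes Cacna1a, Cacna1b, Cacna1c, Cacna1d, Cacna1e and Cacna1h, the alpha2delta genes Cacna2d1, Cacna2d2 and Cacna2d3, and the beta gene Cacnb3. All 10 were found among the 21021 genes of each table, and all 10 were among the 14023 genes with at least 1 FPKM (fragment counts scaled to transcript length and to the size of the library) in at least 3 of the samples tested. The pore subunit sets the type of current, the beta subunit binds it inside the cell, and the alpha2delta subunit sits outside and promotes channel delivery to the membrane. In primary sensory neurons, P/Q-type and N-type channels trigger transmitter release in the spinal cord, and T-type channels set excitability. The alpha2delta-1 and alpha2delta-2 proteins are the binding sites of gabapentin and pregabalin, which are prescribed for neuropathic pain.

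The samples were dorsal root ganglia (DRG), the ganglia that hold the cell bodies of sensory neurons, from adult female Sprague-Dawley rats in a bone cancer pain model. Walker 256 mammary gland carcinoma cells were placed in the left tibia (tumor cell implantation, TCI), and the lumbar ganglia L3-L5 of the operated side were pooled and sequenced 1, 7 or 14 days later. Each of the sham, day 1, day 7 and day 14 groups held 4 samples. The sham group was taken at day 14 only, and received PBS per the labels but boiled tumor cells per the published methods, so that at days 1 and 7 tumor and time since surgery cannot be told apart. The paper describes each sample as the pooled ganglia of a single animal. No label names the animal or the run of a sample, so the p-values measure the spread between these samples.

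Day 1 replicate 2 and day 7 replicate 3, which the published analysis set aside, were left out of the tests. These therefore rest on 14 samples (sham 4, day 1 3, day 7 3, day 14 4). Day 7 replicate 3 held skeletal muscle transcripts at high levels (20 genes summing to 25859 FPKM, against 21.2 to 28.2 FPKM in the other day 7 samples), with Acta1, the skeletal muscle actin, at 6693 FPKM against 4.64 to 6.95 FPKM in the other day 7 samples. Sham replicate 4, which stayed in, held them at lower levels (651 FPKM summed, against 18.8 to 22.2 FPKM), with Acta1 at 177 FPKM against 5.22 to 5.72 FPKM in the other sham samples. The neuronal identity of the tissue was clear in every sample: none of 16 neuron genes was at 0, and their summed level was 11087 FPKM in day 7 replicate 3 and 15189 to 19265 FPKM in the 14 samples tested. The summed level of 14 macrophage genes was 67.9 to 131 FPKM in sham, 92.0 to 110 FPKM at day 1, 932 to 1248 FPKM at day 7 and 522 to 1822 FPKM at day 14. FPKM is a share of all fragments in a library, so fewer neurons in the sample and less RNA of a gene per neuron cannot be told apart.

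The start of the Cacna2d1 gene (gene ID 25399) is shown because it was the only gene of the 10 that passed a test at any day, that of Cacnb3 (gene ID 25297) because it was the most abundant, and that of Cacna1s (gene ID 682930), the pore gene of skeletal muscle, because it was high where other muscle genes were high. Each line holds the 250 bases before a RefSeq transcription start in GRCr8, 5′ to 3′ on the strand of the gene. Capitals mark GGGCGG (or CCGCCC, the same motif on the other strand), the GC box, together with CAGCTG, an E-box form, and TATAAA, the TATA box. All were searched on both strands with overlapping copies counted.

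Cacna2d1: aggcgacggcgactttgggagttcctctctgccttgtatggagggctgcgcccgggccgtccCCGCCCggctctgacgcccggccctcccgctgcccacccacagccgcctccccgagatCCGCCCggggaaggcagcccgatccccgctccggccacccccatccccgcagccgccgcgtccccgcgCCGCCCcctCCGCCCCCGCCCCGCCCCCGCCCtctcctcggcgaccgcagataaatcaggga

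Cacnb3: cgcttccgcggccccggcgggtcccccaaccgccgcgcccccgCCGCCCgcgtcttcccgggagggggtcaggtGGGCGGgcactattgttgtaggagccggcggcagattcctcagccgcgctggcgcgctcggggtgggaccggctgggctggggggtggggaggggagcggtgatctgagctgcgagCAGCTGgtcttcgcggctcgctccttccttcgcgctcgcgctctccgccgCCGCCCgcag

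Cacna1s: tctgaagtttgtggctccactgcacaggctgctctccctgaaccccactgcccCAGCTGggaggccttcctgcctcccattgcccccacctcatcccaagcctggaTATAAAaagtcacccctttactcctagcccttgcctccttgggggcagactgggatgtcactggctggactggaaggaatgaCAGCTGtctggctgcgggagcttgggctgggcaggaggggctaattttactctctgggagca

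The Cacna2d1 window (chr4:20330148-20330397, minus strand) is 77.2% G or C and holds 7 copies of GGGCGG. RefSeq lists other starts for this gene, and this is the most upstream of its windows. The Cacnb3 window (chr7:131666301-131666550, plus strand) is 76.4% G or C, with 3 copies of GGGCGG and 1 of CAGCTG. The Cacna1s window (chr13:50045418-50045667, plus strand) is 59.2% G or C, and holds no GGGCGG, 2 copies of CAGCTG and 1 of TATAAA. Of the 10 genes, 9 had a window (Cacna1h had none), and 7 of these 9 held GGGCGG, 1 held CAGCTG and 0 held TATAAA. Among 33469 rat windows of the same length, 30.5% held GGGCGG, 12.0% held CAGCTG and 12.9% held TATAAA. The median of those windows was 51.2% G or C, and the windows of the 9 genes ran from 51.2 to 88.8%. A gene could give several of the 33469 windows, against 1 for each of the 9, so the shares are not strictly alike. These counts describe letters in the windows and say nothing of which factors bind there.

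Levels of the 10 genes spanned a wide range in the ganglia. Cacnb3 stood far above the other genes, at 139 ± 10.8 FPKM (SD, n = 14). It supplied 79.7 to 83.5% of the summed FPKM of the 4 beta genes in every sample tested. Cacnb1 followed with a median share of 11.0%, Cacnb4 with 6.56% and Cacnb2 with 0.592%. Beta-3 was therefore the main beta transcript of the DRG in sham and tumor samples alike.

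Among the alpha2delta genes, Cacna2d3 was the most abundant at 25.0 ± 1.90 FPKM, followed by Cacna2d1 at 23.0 ± 2.22 FPKM and Cacna2d2 at 16.2 ± 2.40 FPKM (SD, n = 14). Cacna2d3 and Cacna2d1 overlapped in range, and so did Cacna2d1 and Cacna2d2. As shares of the 4 alpha2delta genes, the medians were 39.2% for Cacna2d3, 36.5% for Cacna2d1 and 24.6% for Cacna2d2. Cacna2d4, whose product is known from the retina, had a median share of 0.0742%. The drug-binding pair Cacna2d1 and Cacna2d2 thus shared the ganglion with another subunit, which does not bind gabapentin with high affinity.

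Among the pore genes, Cacna1b, which encodes the N-type channel blocked by ziconotide, had the highest level, at 17.0 ± 1.11 FPKM. Cacna1a, the P/Q-type pore, followed at 14.9 ± 0.950 FPKM, and Cacna1h, the T-type channel typical of sensory neurons, at 9.84 ± 1.41 FPKM (SD, n = 14). Together these release and T-type pores made up most of the pore transcripts, with median shares of 32.2% for Cacna1b, 27.9% for Cacna1a and 18.7% for Cacna1h. The L-type pores were lower, with Cacna1c at 5.62 ± 0.775 FPKM and Cacna1d at 2.79 ± 0.226 FPKM. The R-type pore gene Cacna1e was lowest at 1.05 ± 0.0859 FPKM (SD, n = 14). Neighbours in the order of all 10 levels overlapped in range over the 14 samples except for Cacnb3 and Cacna2d3, Cacna1a and Cacna1h, Cacna1c and Cacna1d, and Cacna1d and Cacna1e.

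**Figure D1:**
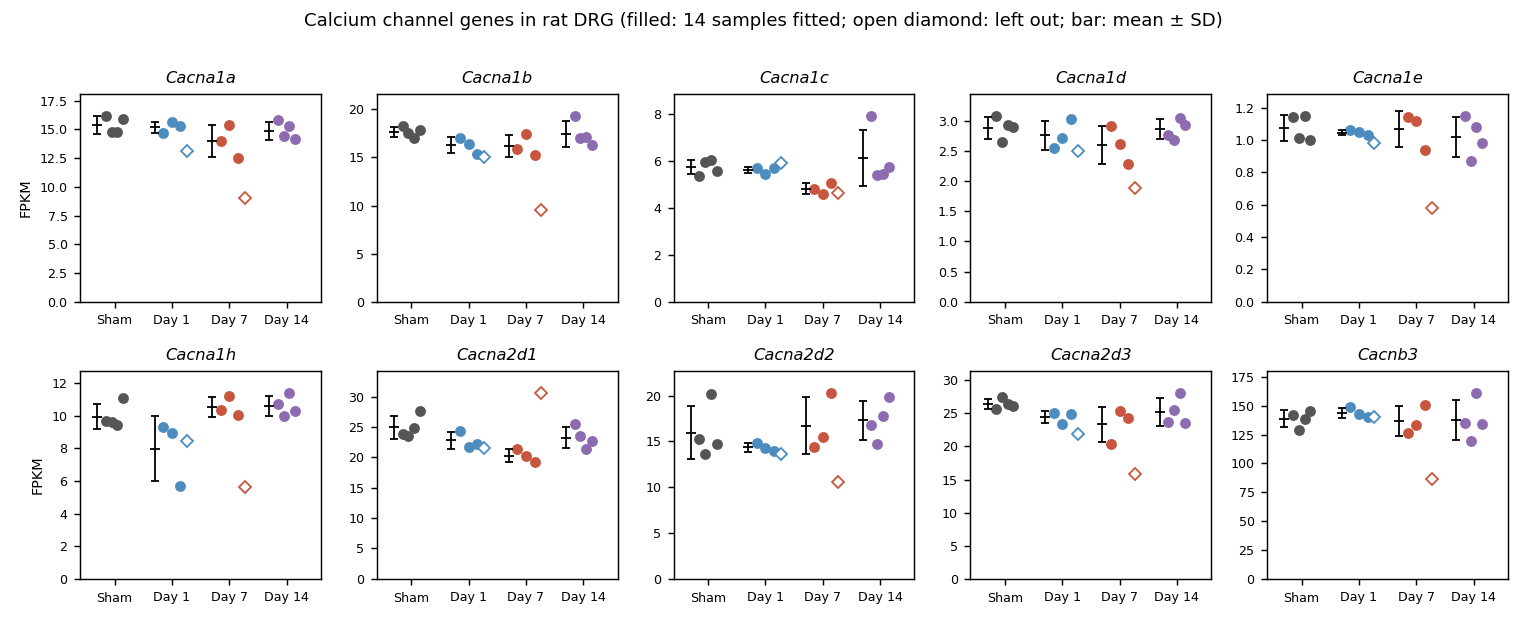
FPKM of each of the 10 genes (vertical axis, one panel per gene, starting at 0) in the sham, day 1, day 7 and day 14 groups. Filled points are the 14 samples tested, open diamonds the 2 left out, and bars the mean ± SD of the filled points. In 9 of the 10 panels the open day 7 diamond lies below the mean of the filled day 7 points, and in the Cacna2d1 panel it is the highest point, at 30.6 FPKM.

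Cacna2d1 was lower at day 7 than in sham. Its sham samples stood at 23.8, 23.5, 24.8 and 27.7 FPKM. At day 7 the 3 samples tested stood at 21.4, 20.2 and 19.2 FPKM, all below every sham sample. Samples stood apart from sham in this way, in either direction, for 33.9% of all tested genes at day 7. The log2 difference was -0.28 (SE 0.07, 95% interval -0.44 to -0.13, adjusted p = 0.0133 by limma with Benjamini-Hochberg adjustment over all tested genes), which is a level 0.813 times that of sham in mean FPKM. Of all 14023 genes, 17.9% were called at day 7 in either direction (adjusted p of at most 0.05) and 3.45% were called lower, and of the 10 genes here 1 was called.

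The call of Cacna2d1 depended on which samples were tested and on the scaling. The left-out day 7 replicate 3 stood at 30.6 FPKM, the highest value of all 16 samples, and with all 16 samples the difference was -0.14 (adjusted p = 0.390). Without day 7 replicate 4 it was -0.25 (adjusted p = 0.0576), and without sham replicate 4, which held muscle transcripts and the highest sham value, it was -0.24 (adjusted p = 0.0350). When levels were expressed relative to the 16 neuron genes, the difference was -0.11 (adjusted p = 0.394), and after quantile normalization it was -0.35 (adjusted p = 0.0042). Alongside it, all 16 neuron genes had negative differences at day 7 (median -0.16), and 5 of them were called lower. Their part in the Cacna2d1 result was not tested beyond that scaling.

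At day 1 the 3 samples tested of Cacna2d1 stood at 24.4, 21.8 and 22.1 FPKM, and at day 14 the 4 samples stood at 25.5, 23.5, 21.4 and 22.6 FPKM. Both groups overlapped sham, with log2 differences of -0.13 (95% interval -0.28 to 0.03) at day 1 and -0.10 (-0.24 to 0.04) at day 14. From day 7 to day 14 the difference was 0.19 (0.03 to 0.34, limma adjusted p = 0.392), which was not called. Over the 4 groups the limma F test gave an adjusted p of 0.0620, above the threshold.

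The other drug target, Cacna2d2, was the most variable alpha2delta gene, with a coefficient of variation of 14.9% over the 14 samples. Sham samples stood at 15.2, 13.6, 20.2 and 14.8 FPKM, day 7 samples at 14.4, 15.4 and 20.3 FPKM, and day 14 samples at 16.8, 14.8, 17.8 and 19.9 FPKM. One sample near 20 FPKM was present in each of the 3 groups, and the groups overlapped. The log2 difference was 0.07 at day 7 (95% interval -0.22 to 0.35) and 0.12 at day 14 (-0.15 to 0.39), and neither was called. At day 1 the samples stood at 14.9, 14.3 and 14.0 FPKM, with a difference of -0.13 (-0.42 to 0.16).

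Cacna2d3, the subunit linked to heat pain in fly and mouse genetics, stood at 25.7, 27.4, 26.3 and 26.1 FPKM in sham and at 20.4, 25.4 and 24.2 FPKM at day 7. All day 7 samples lay below all sham samples, which 33.9% of all tested genes also did in one direction or the other. The log2 difference of -0.18 (SE 0.07, limma adjusted p = 0.121) was not called, and it was 0.00026 relative to the neuron genes. At day 1 the samples stood at 25.1, 23.4 and 24.9 FPKM, also all below sham, with a difference of -0.11 (limma adjusted p = 0.974). Ranges stood apart for 11.9% of all tested genes at day 1. At day 14 the samples, at 23.7, 25.6, 28.1 and 23.6 FPKM, overlapped sham.

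Cacnb3 stood at 142, 129, 139 and 146 FPKM in sham, at 148.5, 143 and 139.9 FPKM at day 1, at 126, 133 and 151 FPKM at day 7, and at 135, 119, 161 and 134 FPKM at day 14. Every group overlapped every other. The log2 difference from sham was 0.05 at day 1, -0.02 at day 7 and -0.02 at day 14, with 95% intervals that ran from -0.21 to 0.24 over the 3 days.

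The release pores showed small differences within the spread between samples. Cacna1b stood at 18.2, 17.5, 17.0 and 17.8 FPKM in sham and at 15.8, 17.5 and 15.2 FPKM at day 7, with a log2 difference of -0.12 (95% interval -0.26 to 0.01). Cacna1a stood at 16.2, 14.7, 14.8 and 15.9 FPKM in sham and at 14.0, 15.4 and 12.5 FPKM at day 7, with a difference of -0.13 (-0.27 to 0.0076). The samples of both genes overlapped sham, and both differences turned positive, to 0.05 and 0.04, relative to the neuron genes. At day 14 Cacna1b stood at 19.3, 17.0, 17.1 and 16.25 FPKM (difference -0.02) and Cacna1a at 15.8, 14.4, 15.3 and 14.1 FPKM (difference -0.04). At day 1 Cacna1b stood at 17.0, 16.4 and 15.4 FPKM (difference -0.11) and Cacna1a at 14.7, 15.6 and 15.3 FPKM (difference -0.02).

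Of the 10 genes, Cacna1h had the largest difference at day 1, with 1 sample well below the rest. Sham samples stood at 9.66, 9.62, 9.42 and 11.1 FPKM and day 1 samples at 9.30, 8.97 and 5.68 FPKM. All 3 day 1 samples lay below all sham samples, at a day when 11.9% of all tested genes stood apart from sham. The log2 difference was -0.31 (SE 0.12, limma adjusted p = 0.939) and was not called, as was no gene of the 14023 at day 1 (0% called), although 734 had an unadjusted p under 0.05. At day 7 the samples stood at 10.3, 11.2 and 10.1 FPKM, and at day 14 at 10.7, 9.97, 11.4 and 10.3 FPKM, with differences from sham of 0.08 at both days (95% intervals -0.19 to 0.34 and -0.16 to 0.33). Days 7 and 14 together were 0.24 above sham and day 1 together (limma adjusted p = 0.0637), which was not called.

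Cacna1c, the L-type pore also found in vessel smooth muscle, was lowest at day 7. It stood at 5.37, 5.94, 6.04 and 5.58 FPKM in sham and at 4.80, 4.60 and 5.05 FPKM at day 7. All day 7 samples lay below all sham samples, at a day when 33.9% of all tested genes stood apart from sham. The log2 difference of -0.21 (SE 0.10, limma adjusted p = 0.167) was not called. At day 14 the samples stood at 7.92, 5.39, 5.42 and 5.75 FPKM, with replicate 1 well above the others. They lay above all day 7 samples, as 7.03% of all genes stood apart between those days, with a difference of 0.28 (limma adjusted p = 0.356). Against sham the day 14 difference was 0.07, and it was -0.05 without day 14 replicate 1. With that replicate left out, the day 7 difference, still -0.21, passed the threshold (limma adjusted p = 0.0212).

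The low genes Cacna1d and Cacna1e did not separate any group from sham. Cacna1d ranged from 2.28 to 3.08 FPKM and Cacna1e from 0.870 to 1.15 FPKM over the 14 samples. For Cacna1d the log2 differences were -0.05 at day 1, -0.11 at day 7 and -0.01 at day 14. For Cacna1e they were -0.02, -0.0064 and -0.04 at the same days. A value near 1 FPKM is compressed by the pseudocount of 1, so these understate relative change.

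**Figure D2:**
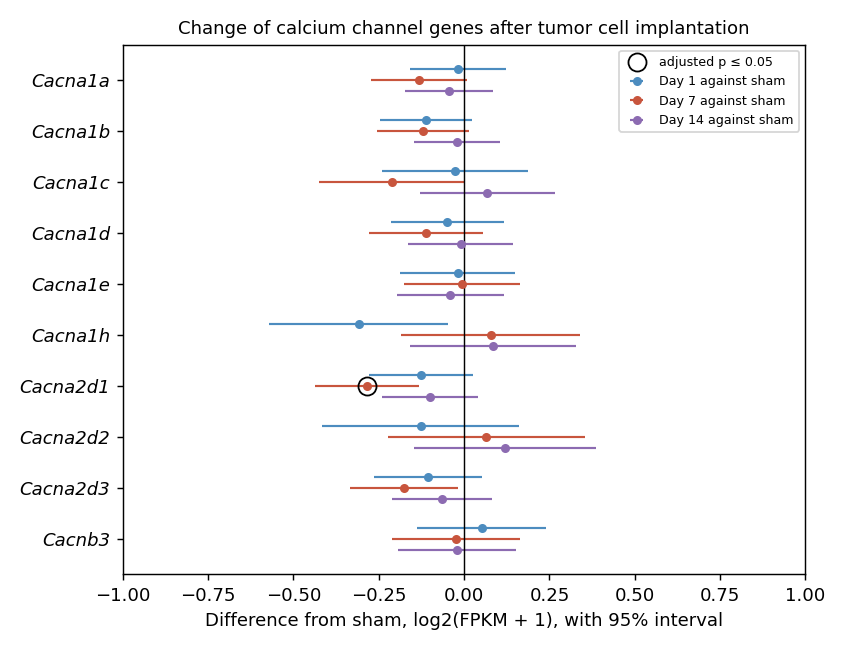
Differences of the 10 genes from sham on the log2(FPKM + 1) scale (horizontal axis) at days 1, 7 and 14, with 95% intervals from limma. The circled point, Cacna2d1 at day 7, is the only one with an adjusted p of at most 0.05, and all other points at day 7 and day 14 lie between -0.21 and 0.12.

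Across the group as a whole, few genes passed the test at any day. Of the 10, 0 were called over the 4 groups by the F test (16.5% of all tested genes were), 0 at day 1, 1 at day 7, 0 at day 14 (15.1% of all), 0 between day 14 and day 7 (0.0998% of all), and 0 between days 7 and 14 and sham and day 1 (24.3% of all). Unadjusted p-values under 0.05 were found for 2 of the 10 over the 4 groups (Cacna2d1 and Cacna1h), 1 at day 1 (Cacna1h), 2 at day 7 (Cacna2d1 and Cacna2d3), 0 at day 14, 2 between day 14 and day 7 (Cacna1c and Cacna2d1) and 2 in the last comparison (Cacna1h and Cacna2d1). Of all 14023 tested genes, 734 had such a p at day 1, 4378 at day 7 and 4198 at day 14. The counts were 1396 between day 14 and day 7 and 5043 in the last comparison. The median log2 difference of the 10 genes was -0.08 at day 1, -0.12 at day 7 and -0.02 at day 14, and that of all tested genes was 0.0009, 0.04 and 0.03. The lowest bound of any 95% interval at days 7 and 14 was -0.44, for Cacna2d1 at day 7, and the highest was 0.39, for Cacna2d2 at day 14. Under cut-offs of an adjusted p of 0.001 and a log2 change of 1, 0 of the 10 were called at day 7 (1.83% of all) and 0 at day 14 (0.642% of all). The samples of 2 of the 10 stood apart from sham at day 1 (11.9% of all), 3 at day 7 (33.9% of all) and 0 at day 14 (19.2% of all). The comparisons with sham share their sham samples.

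The direction at day 7 moved with the scaling. On the FPKM scale 8 of the 10 differences were negative at day 7. After quantile normalization 10 of 10 were negative and 6 were called, and relative to the neuron genes 2 of 10 were negative and 0 were called. The median of all tested genes moved likewise, from 0.04 on the FPKM scale to -0.07 and 0.20, and the share of calls that were higher at day 7 from 80.7% to 36.6% and 99.4%. At day 14 that share was 78.8%, 41.6% and 98.7%. The percentage of all tested genes called under the other scalings is not given here. The 6 and the 0 called therefore have no background beside them.

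Of the 17 other subunit genes, 11 passed the filter on low values, and 3 of these were lower at day 7. Of all tested genes, 17.9% were called at day 7 and 3.45% were called lower. Cacnb4, a beta subunit known from epilepsy and ataxia, stood at 13.6, 13.1, 11.4 and 11.8 FPKM in sham and at 10.5, 10.4 and 9.29 FPKM at day 7, with no overlap. Its log2 difference was -0.28 (SE 0.07, limma adjusted p = 0.0136), and it passed the F test over the 4 groups (limma adjusted p = 0.0394). Day 1 samples of Cacnb4, at 11.2, 9.94 and 10.01 FPKM, and day 14 samples, at 11.1, 11.3, 10.2 and 10.7 FPKM, also lay below all sham samples without a call. Of all tested genes, 11.9% stood apart from sham at day 1, 33.9% at day 7 and 19.2% at day 14.

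The other 2 called subunits were the gamma genes Cacng2 and Cacng4, whose products are best known as auxiliary subunits of AMPA glutamate receptors. Cacng2 stood at 21.9, 19.8, 20.2 and 20.8 FPKM in sham and at 17.2, 17.9 and 17.5 FPKM at day 7 (log2 difference -0.22, SE 0.07, limma adjusted p = 0.0467). Cacng4 stood at 11.7, 10.9, 13.1 and 10.6 FPKM in sham and at 9.15, 7.98 and 6.0 FPKM at day 7 (-0.54, SE 0.17, limma adjusted p = 0.0486). Neither overlapped sham at day 7, and neither passed the F test over the 4 groups (limma adjusted p = 0.0799 for Cacng2 and 0.0845 for Cacng4). With all 16 samples the day 7 differences of Cacnb4, Cacng2 and Cacng4 were -0.39, -0.33 and -0.66, and all were called. Relative to the neuron genes they were -0.11, -0.05 and -0.37, and none was called (limma adjusted p from 0.136 to 0.454).

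The remaining 8 tested subunit genes (Cacna1i, Cacnb1, Cacnb2, Cacng3, Cacng5, Cacng7, Cacng8 and Cachd1) were called at no day against sham. Cacng7 was the most abundant gamma gene, with a median share of 54.9% of the gamma transcripts. The largest of their differences at day 7 was that of Cacng5, at -0.32 (SE 0.13, limma adjusted p = 0.0973). At day 14 none of the 11 genes was called by limma, and 2 had an unadjusted p under 0.05. The retinal pore gene Cacna1f, the T-type pore Cacna1g, Cacna2d4 and the muscle genes Cacna1s, Cacng1 and Cacng6 did not pass the filter.

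Among 14 tested regulators of the channels, 1 was higher and 2 were lower at day 7, against 2028 higher and 484 lower of all 14023 tested genes. Rem1, one of the RGK small GTPases that inhibit these channels, stood at 1.78, 1.64, 1.37 and 1.81 FPKM in sham and at 3.24, 3.55 and 3.25 FPKM at day 7, with no overlap. The difference was 0.72 (SE 0.12, limma adjusted p = 0.0013), and it held after quantile normalization (0.49). Relative to the neuron genes it was 0.84, under a scaling that moved the median of all tested genes up from 0.04 to 0.20. Rem2, another RGK GTPase, stood at 13.2, 13.3, 11.7 and 12.5 FPKM in sham and at 10.1, 9.61 and 7.36 FPKM at day 7 (-0.46, SE 0.11, limma adjusted p = 0.0124). Dpysl2, which encodes the N-type channel partner CRMP2, was called lower (-0.20, SE 0.05, limma adjusted p = 0.0153) but not relative to the neuron genes (-0.02). Rem1 and Rem2 thus moved in opposite directions, and the difference of Rem2 was -0.29 relative to the neuron genes and -0.56 after quantile normalization, both called. Over the 4 groups Rem1 (limma adjusted p = 0.0038) and Rem2 (0.0344) passed the F test and Dpysl2 (0.0534) did not.

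At day 14 the regulators called were Rem1 and Gem, another RGK GTPase, both higher. Gem stood at 1.13, 1.11, 1.44 and 1.44 FPKM in sham and at 1.98, 3.07, 1.72 and 1.93 FPKM at day 14, with no overlap (0.46, SE 0.12, limma adjusted p = 0.0236), and passed the F test over the 4 groups (0.0426). Rem1 stood at 2.76, 2.79, 1.69 and 2.46 FPKM at day 14 and overlapped sham (0.36, SE 0.11, limma adjusted p = 0.0442). After quantile normalization neither was called at day 14 (0.31 for Gem and 0.20 for Rem1). Rem2, at 10.5, 11.7, 13.95 and 14.5 FPKM, overlapped sham at day 14.

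Thbs1, Thbs4 and Lrp1, whose products are partners of alpha2delta, rose at day 7, while the transporter genes of the drugs did not pass the test. Of 9 genes in this list of ligands and transporters, 3 were called higher and 0 lower, and the median difference was 0.14. Of all 14023 tested genes, 2028 were called higher and 484 lower at that day. Thrombospondins bind alpha2delta-1, and Thbs4 stood at 4.27, 8.41, 9.58 and 6.54 FPKM in sham and at 34.5, 29.7 and 21.9 FPKM at day 7. The difference was 1.88 (SE 0.49, limma adjusted p = 0.0173), with no overlap. Thbs1 stood at 1.59, 1.79, 1.72 and 2.67 FPKM in sham and at 6.33, 8.70 and 5.35 FPKM at day 7 (1.396, SE 0.29, limma adjusted p = 0.0057). Lrp1, a receptor that has been shown to bind alpha2delta, rose from 13.3 ± 0.669 to 19.4 ± 2.38 FPKM (SD, n = 4 and 3, difference 0.51, limma adjusted p = 0.0408). All 3 day 7 calls held after quantile normalization. They also held relative to the neuron genes, but that scaling moved the median of all tested genes up, from 0.04 to 0.20. It could therefore hardly undo a call of a higher level. Over the 4 groups Thbs1 passed the F test (limma adjusted p = 0.0182), and Thbs4 (0.0559) and Lrp1 (0.110) did not.

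At day 14 none of these genes was called by limma, and 2 had an unadjusted p under 0.05. Thbs4 then ranged from 6.82 to 49.2 FPKM, with replicate 3 inside the sham range. Slc7a5, the amino acid transporter that carries gabapentin across membranes, had a difference of 0.06 at day 7 (adjusted p = 0.645) and 0.08 at day 14 (adjusted p = 0.492 by limma). Its level was 26.6 ± 1.69 FPKM in sham and 27.8 ± 1.61 FPKM at day 7 (SD, n = 4 and 3).

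**Figure D3:**
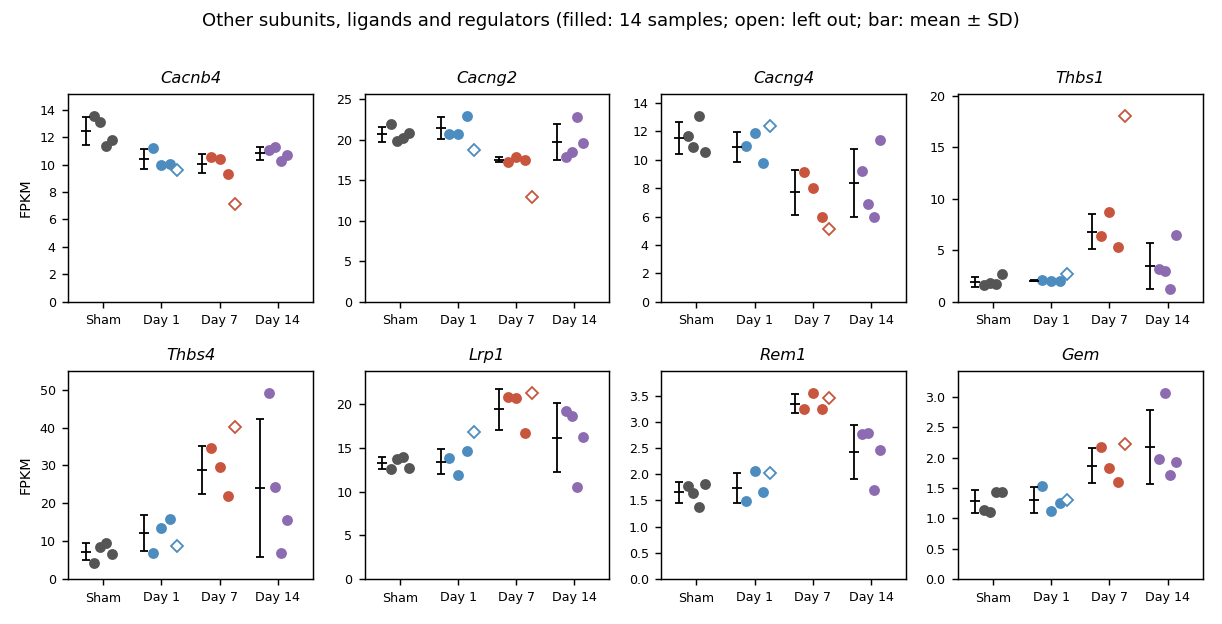
FPKM (vertical axes, starting at 0) of the 3 other subunits called at day 7, of Thbs1, Thbs4 and Lrp1, and of the RGK genes Rem1 and Gem in the 4 groups. Filled points are the 14 samples tested, open diamonds the 2 left out, and bars the mean ± SD of the filled points. The filled day 7 points of all 8 genes lie outside the sham range, below it for the 3 subunits and above it for the other 5.

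Among genes of the transmitter release machinery, which these channels drive, Syt2 (-0.43), Snap25 (-0.27) and Vamp1 (-0.23) were called lower at day 7, with limma adjusted p from 0.0092 to 0.0463. They encode a fast calcium sensor and SNARE proteins of vesicle fusion. At that day 3.45% of all tested genes were called lower, and at day 14 15.1% were called in either direction. Relative to the neuron genes the differences were -0.25, -0.09 and -0.05, and none of the 3 was called. At day 14 Snap25 was called lower (-0.19, limma adjusted p = 0.0437), and Syt2 and Vamp1 were not called. Over the 4 groups Snap25 (limma adjusted p = 0.0181) and Vamp1 (0.0476) passed the F test and Syt2 (0.0530) did not.

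Markers of other cells moved at the same days. All 14 macrophage genes and all 9 tested T cell genes were called higher at day 7, and 12 and 9 of them at day 14. In either direction, 17.9% of all tested genes were called at day 7 and 15.1% at day 14, and 3.45% were called lower at day 7. Counts in the smaller lists below are to be read beside these shares. Of 9 tested nerve injury genes, Csf1 (0.71) and Jun (0.28) were called higher at day 7 and 0 were called lower. At that day 5 of the 9 differences were negative, with a median of -0.015. The lowest of them was larger in size than that of Csf1 but was not called. At day 14 Csf1 (0.62) and Gadd45a (0.26) were called higher and 0 lower, and 1 of the 9 differences was negative (median 0.18). Atf3, which axotomy induces in sensory neurons, overlapped sham at both days. The sham range includes sham replicate 4. That sample held the 10 nerve injury genes at a median of 1.38 times the mean of the other sham samples, with 0 below that mean. Its 9 Schwann cell genes had a median ratio of 0.776. Of 9 endothelial genes, Cdh5 (0.83) and Vwf (0.59) were higher at day 7 and 0 were called by limma at day 14, where 2 had an unadjusted p under 0.05. Of 9 Schwann cell genes, 0 were called by limma at either day, with 2 at day 7 and 0 at day 14 under an unadjusted p of 0.05, and for 8 tested skeletal muscle genes all these counts were 0. In days 7 and 14 against sham and day 1, all 9 Schwann cell differences were negative and 5 were called (24.3% of all tested genes were). At day 1, 0 of the 9 were negative and 0 were called, and 7 stood apart from sham (11.9% of all tested genes did). Among 8 satellite glia genes, Kcnj10 was lower at both days (-0.75 and -0.97), Glul was higher at day 7 and Cdh19 lower at day 14. The part of these cells in the values of the 10 genes was not tested.

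In day 7 replicate 3 the calcium channel genes split. Cacna2d1 stood at 1.51 times the mean of the other day 7 samples, and the other 9 genes lay below that mean, with a median ratio over all 10 of 0.640 and a lowest ratio of 0.534 for Cacna1h. The 16 neuron genes had a median ratio of 0.671. The muscle subunits were far above: Cacna1s, the skeletal muscle pore, stood at 52.9 FPKM against 0.05 to 0.10 FPKM, and Cacng6 at 21.7 FPKM against 0.02 to 0.06 FPKM. Cacng1, the muscle gamma subunit, stood at 65.5 FPKM and was listed at 0 in the other day 7 samples, and Cacnb1, the muscle beta subunit, at 32.5 FPKM against 16.9 to 19.7 FPKM. Alpha2delta-1 is the alpha2delta subunit of the skeletal muscle channel. Stac3, an adaptor of that channel, stood at 47.0 FPKM against 0 to 0.07 FPKM.

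Sham replicate 4 showed the same genes at lower levels. Cacna1s stood at 1.31 FPKM there against 0.09 to 0.11 FPKM in the other sham samples, Cacng1 at 0.89 against 0.05 to 0.09 FPKM, and Cacng6 at 0.29 against 0 to 0.03 FPKM. Its Cacna2d1 level was 1.15 times the mean of the other sham samples, and its median ratio over the 10 genes was 1.01. The part of muscle RNA in the Cacna2d1 level of these libraries was not tested.

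**Figure D4:**
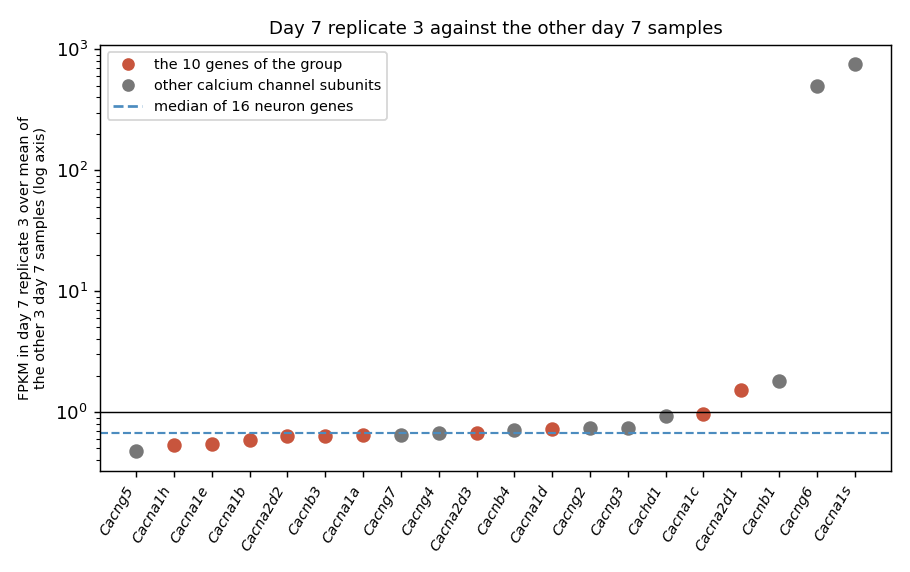
Ratio of the FPKM in day 7 replicate 3 to the mean of the other 3 day 7 samples (vertical log axis) for the 10 genes (red) and the other subunits with at least 1 FPKM there (gray), with the median of 16 neuron genes dashed. Cacng1, listed at 0 in the other samples, has no ratio and is not drawn. Cacna1s lies at 756 and Cacng6 at 500.5, Cacna2d1 at 1.51 and Cacna1h at 0.534.

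The 10 genes did not vary as one block over the 14 samples. Pearson correlations of their log2(FPKM + 1) values between pairs ranged from -0.46 (Cacna1a and Cacna2d2) to 0.69 (Cacna1a and Cacna1b), each over the same 14 samples, which share their libraries and groups. Cacna1b and Cacna2d1 had 0.64, and Cacna1c and Cacna2d1 0.62. These are descriptions of shared variation between samples, with group differences included.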

How the data were processed

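Bulk RNA-seq was run on rat DRG, with 1 table per sample. Per the published methods and labels, the authors mapped paired reads with HISAT/Bowtie2 (per the labels also CASAVA 1.4), quantified genes with RSEM and deposited FPKM values. The genome build is not given in the sources used here. The sequencing platform is Illumina in the labels and BGISEQ-500 in the methods. The published methods give an average read number for the series, and the FPKM tables hold no totals from which the count behind a value could be taken. Relative depths taken from the low values of 37 genes, 6 to 17 of them per sample, were 0.909 to 1.08 times their median. Only values within 1.3 times the lowest nonzero value of a gene were used. Larger differences in depth could therefore not have shown, and equal depth cannot be concluded.

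Values were transformed to log2(FPKM + 1) and fitted across all genes with limma 3.58.1 (R 4.3.3, eBayes with trend). A gene was kept where 3 or more of the 14 samples reached 1 FPKM (14023 of 21021), and p-values were adjusted over them (Benjamini-Hochberg), with calls at 0.05, two-sided. A count test was not possible. The fit was tested on simulated data of 14023 genes for day 7 versus sham: of 200 genes changed by a log2 of 0.5, 61.5% were recovered, and 90.5% by 1.

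The 10 genes and all lists were chosen with earlier results of these data known. Genes named were the 10, every tested subunit and called genes of the other lists, at most 4 per list in detail. One called gene of the release list is not reported here. Promoter windows came from RefSeq (GRCr8), and all 27 subunit gene IDs matched it. Alternatives were all 16 samples, other scalings, filters, pseudocounts, weights, a replicate block and leaving out each sample.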

Additional observations from a re-analysis of the deposited data

Results flagged for a closer look

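Of 108 sets of 4 samples examined among the 27 subunit genes, 13 held a sample far from the other 3. The rule gives about 1 in 20 for independent sets of normally spread values. These sets share libraries and some values lie near 0, so the 13 are not judged against that rate. In day 7 replicate 3, Cacna1s stood at 52.92 FPKM, Cacng1 at 65.46 and Cacng6 at 21.69, all high, and Cacng2 at 12.88 and Cacng3 at 6.45, both low. In sham replicate 4, Cacna1s stood at 1.31 FPKM, Cacna1h at 11.08, Cacng1 at 0.89 and Cacng6 at 0.29, all high. At day 14, Cacna1c stood at 7.92 and Cacng5 at 8.92 FPKM in replicate 1, and Cacng7 at 67.59 and Cacna1f at 0.15 FPKM in replicate 3, all high.

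The library left out of the day 7 tests held levels above every sham sample for Cacna2d1 (30.59 FPKM), Cacnb1 (32.49 FPKM), Cacna1s (52.92 FPKM), Cacng1 (65.46 FPKM) and Cacng6 (21.69 FPKM). Its 20 skeletal muscle genes had a median ratio of 1470 to the other day 7 samples, and none was below 1.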

How the results depend on the processing

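The counts of 0 of the 10 genes called at day 1, at day 14 and between day 14 and day 7 held under every alternative run. In the main fit 0% of all tested genes were called at day 1 and 0.0998% between day 14 and day 7. Those comparisons could therefore hardly show a call, and their stability says little of the 10 genes. Over the 4 groups the count of 0 became 3 with array quality weights, 1 after quantile normalization, 1 relative to the neuron genes and 0 to 1 with a sample left out. At day 7 the count of 1 became 0 with all 16 samples, 3 with array quality weights, 6 after quantile normalization, 0 relative to the neuron genes, 2 with only the 2 groups fitted, 0 under the study's cut-offs (adjusted p of 0.001 and a log2 change of 1) and 0 to 2 with a sample left out: 0 without day 7 replicate 4 and 2 without day 14 replicate 1. For days 7 and 14 against sham and day 1 the count of 0 became 1 with array quality weights, 4 after quantile normalization, 2 relative to the neuron genes and 0 to 1 with a sample left out (1 without day 1 replicate 1, day 1 replicate 3 or day 14 replicate 1). In that comparison 8 of the 10 differences were negative after quantile normalization. Relative to the neuron genes 0 were negative, so the 2 calls there were of higher levels. The percentages of all tested genes called with array quality weights and under the other scalings are not given here. The causes were not tested.

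Uncalled log2 differences that changed sign were small. Relative to the neuron genes at day 7 they became 0.0382 for Cacna1a, 0.0519 for Cacna1b, 0.0234 for Cacna1d, 0.0890 for Cacna1e, 0.00026 for Cacna2d3 and 0.158 for Cacnb3. At day 14 they became 0.0920 for Cacna1a, 0.117 for Cacna1b, 0.0974 for Cacna1d, 0.0339 for Cacna1e, 0.0412 for Cacna2d1, 0.0750 for Cacna2d3 and 0.123 for Cacnb3. With all 16 samples at day 7, Cacna1h became -0.122 and Cacna2d2 -0.0849. After quantile normalization Cacna1h became -0.0275 and Cacna2d2 -0.0136 at day 7, and Cacna1c -0.0181 at day 14. With array quality weights at day 7, Cacna1e became 0.0205 and Cacna2d2 -0.0605. With a sample left out, the ranges that crossed 0 at day 7 were -0.0322 to 0.0386 for Cacna1e, -0.0745 to 0.177 for Cacna2d2 and -0.0953 to 0.0335 for Cacnb3. At day 14 they were -0.0685 to 0.0105 for Cacna1b, -0.0455 to 0.115 for Cacna1c, -0.0409 to 0.0139 for Cacna1d and -0.0996 to 0.0433 for Cacnb3. The Cacna2d1 difference at day 7 ranged from -0.32 to -0.24 with a sample left out (adjusted p 0.0084 to 0.0576 by limma).

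Replicate numbers are shared between groups of different animals, and 4 of 18 same-number pairs correlated above 0.1 in their deviations (median 0.0026), so the samples were not treated as paired. With the replicate block the count at day 7 stayed at 1, Cacna1e became 0.0062 and Cacnb3 0.0068. The FPKM tables give no counts, so the counting error of low genes was not computed, and with 3 or 4 samples a group changes near a log2 of 0.5 were missed in part on simulated data.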
